A study of Arabidopsis thaliana with 36 samples.

Results

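Seedlings of Arabidopsis thaliana homozygous for a mutation of SWP73B (genotype swp73b-/-) were compared with wild-type seedlings (wt) by RNA-seq, with 3 libraries in each group. The 6 libraries were chosen by their genotype label alone, out of 36 in the series. The tables list 32548 genes, of which 23297 had a mean value of at least 1 over the 36 libraries and were tested. The series holds wild type and 11 mutants of subunits of the SWI/SNF complexes, all grown in the same way. Seedlings were 12 days old and grew on MS plates in long days, with 16 h of light (23 °C) followed by 8 h of darkness (22 °C), and no treatment is named. A BGISEQ500 instrument read the libraries, made from total RNA, from one end over 50 bp. The labels name neither the allele of swp73b nor the accession of the plants, and do not say whether the 3 libraries of a genotype came from separate plants. The p-values below therefore measure only the spread between libraries of 1 genotype, taken over all 36 libraries, which may be technical.

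SWI/SNF complexes use the energy of ATP to move or evict nucleosomes and so change which stretches of DNA are open to transcription factors. In Arabidopsis the motor is BRM, SYD or one of the MINU ATPases, joined by further subunits such as SWI3 proteins, BSH and actin-related proteins. SWP73B is one of a pair of plant relatives of the mammalian BAF60 subunit, the other being SWP73A, and plants without it are known for small curled leaves, short roots and altered flowers.

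The 6 libraries held 22777662 to 23499446 reads recovered from the deposited values, within the range of 21070583 to 23761910 over all 36. Levels are given in CPM at a common library size, at which 1 CPM is about 23.1 reads, and a library with 0 reads allows a level of up to 0.13 CPM (3 reads, counting error only). A value of 0.001 CPM also stands for 0 reads, since the deposited values are adjusted counts. CPM values are not adjusted for gene length, so levels are compared between libraries and not between genes. Pearson's r of log2 values over genes was 0.9825 to 0.9858 within the swp73b libraries, 0.983 to 0.9865 within the wild-type libraries and 0.9444 to 0.9611 between the groups. The seed maturation genes stood apart among the swp73b libraries, with summed levels of 11.5, 66.7 and 232 CPM, against 7.64, 7.97 and 8.18 CPM in wild-type libraries. Values after ± are SDs over 3 libraries for levels and standard errors for log2 changes, which are on the log2(value + 1) scale and given as swp73b over wild type.

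The mutated gene was checked first. SWP73B (AT5G14170) had 15.8, 18.9 and 14.8 CPM in swp73b libraries, against 63.3, 68.8 and 56.2 CPM in wild-type libraries. The groups did not overlap, and the swp73b mean was 26.3% of the wild-type mean (log2 change -1.93 ± 0.08, limma adjusted p = 2.18e-16). The transcript was thus lower and still present, and what protein it makes was not measured. The means of the other 10 mutants lay between 42.9 and 73.0 CPM. SWP73A (AT3G01890), the paralogue, had 12.4, 12.3 and 10.6 CPM in swp73b libraries, against 12.9, 10.8 and 11.8 CPM in wild-type libraries. Its groups overlapped, with a log2 change of -0.01 ± 0.098 and a limma adjusted p = 0.970.

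Among the other subunits the clearest change was in the MINU ATPases. MINU2 (AT5G19310) had 45.8, 49.95 and 43.4 CPM in swp73b libraries, against 19.5, 20.6 and 17.7 CPM in wild-type libraries, so that every swp73b library stood above every wild-type library (log2 change 1.27 ± 0.08, limma adjusted p = 2.51e-12). MINU1 (AT3G06010) rose as well, with 48.1 ± 6.56 CPM in swp73b and 31.1 ± 1.04 CPM in wild type (SD, n = 3 each) and a log2 change of 0.62 ± 0.09 (limma adjusted p = 1.15e-06). BRM (AT2G46020) and SYD (AT2G28290), the other ATPases, did not pass the test, with log2 changes of -0.22 ± 0.38 and -0.25 ± 0.12. SWI3A (AT2G47620), a scaffold protein, rose by 0.63 on the log2 scale, whereas SWI3D (AT4G34430), a scaffold of the SYD complexes, fell by 0.36. AN3 (AT5G28640), a coactivator of leaf cell proliferation that binds the complex, had 11.3, 11.1 and 15.8 CPM in swp73b and 4.82, 6.304 and 8.52 CPM in wild type, a log2 change of 0.98 ± 0.19 (limma adjusted p = 9.17e-05). In the list of 24 subunit genes tested 7 rose and 4 fell, SWP73B included, against 23.9% of all tested genes that rose and 25.5% that fell. Some of these calls depended on single libraries or settings. ARP4 (AT1G18450) fell by 0.18 and lost its call in 4 of the 6 fits that leave out 1 library (limma adjusted p = 0.0903 without swp73b replicate 2, 0.0544 without swp73b replicate 3, 0.0663 without wt replicate 1 and 0.0846 without wt replicate 2), and BCL7A (AT4G22320) rose by 0.71 and lost it without swp73b replicate 3 (limma adjusted p = 0.0516). ARP7 rose by 0.25 and lost its call in the fit of the 6 libraries alone (limma adjusted p = 0.0777).

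The genes beside SWP73B on the chromosome were examined after their values were seen, in the gene order of the TAIR10.1 gene table. Of the 10 tested genes on each side, 10 rose and 4 fell. Among the nearest 3 on each side 5 rose and 1 fell, and among the 14 beyond them 5 rose and 3 fell. Of all tested genes 23.9% rose and 25.5% fell, and the neighbour counts were not tested against these shares. AT5G14160, the next tested gene on one side, had 1.76, 1.52 and 1.57 CPM in swp73b libraries, against 0, 0 and 0.081 CPM in wild-type libraries. Over the group this was 124 reads in swp73b and 2 reads in wild type, a ratio of 56.7 with an exact 95% counting interval of 15.4 to 473. The next gene on the other side, MPL1 (AT5G14180), a lipase induced by aphid feeding, had 12.4, 10.3 and 14.3 CPM in swp73b libraries, against 1.52, 0.413 and 1.22 CPM in wild-type libraries (log2 change 3.67 ± 0.46, limma adjusted p = 1.89e-07). Both stood above every other mutant, whose means were 0 to 0.124 CPM for AT5G14160 and 0.493 to 2.81 CPM for MPL1. AT5G14150 had 9.03, 7.58 and 10.8 CPM in swp73b and 2.39, 2.44 and 4.49 CPM in wild type (log2 change 1.59 ± 0.25), again above the other mutants at 2.58 to 4.78 CPM. Farther out, IMD1 (AT5G14200), an enzyme of leucine synthesis, rose by 0.75 within the range of the other mutants, and AT5G14140 rose by 0.45, a call that was lost without wt replicate 1 (limma adjusted p = 0.101).

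**Figure D1:**
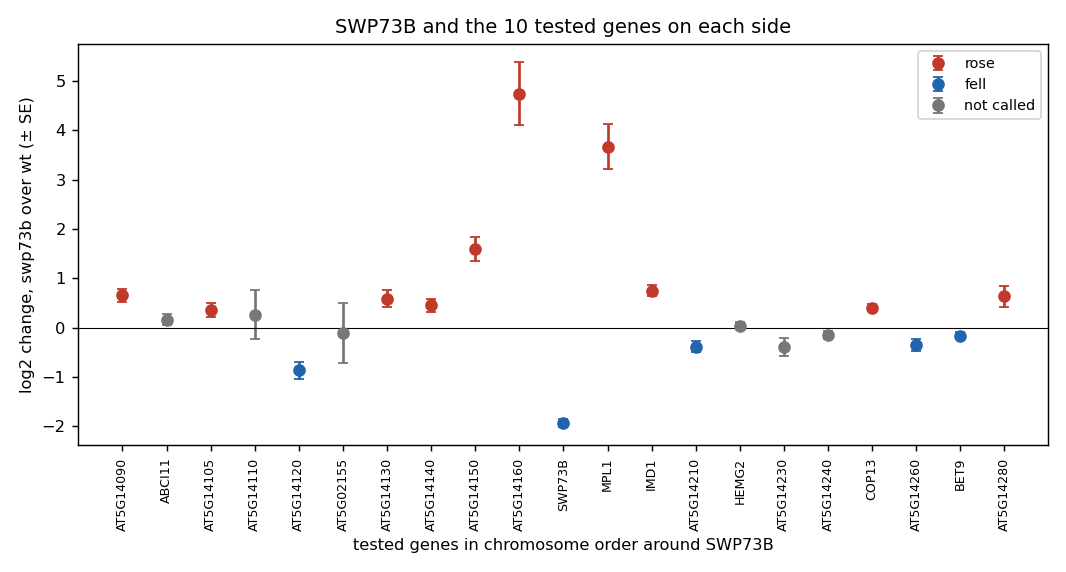
Log2 change (swp73b over wt, with standard errors, vertical axis) of SWP73B and the 10 tested genes on each side of it in chromosome order (horizontal axis), with called genes marked by direction. SWP73B stands at -1.93 between its 2 most raised neighbours, AT5G14160 at 4.75 and MPL1 at 3.67, and changes are smaller beyond AT5G14150 on one side and MPL1 on the other.

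A large part of the genes differed in level between swp73b and wild type. Of 23297 genes tested, 11510 (49.4%) were called at a limma adjusted p under 0.05, of which 5565 (23.9%) rose and 5945 (25.5%) fell. Most of the changes were small. The middle 90% of log2 changes over all tested genes ran from -1.15 to 1.32 around a median of -0.01. A change of 2-fold or more was seen in 1597 called genes that rose (6.85%) and in 1362 that fell (5.85%). Large changes were mostly rises, with 452 genes up and 267 down by at least 4-fold, and 55 up and 6 down by at least 16-fold. The direction of calls varied with the wild-type level, and a gene near the floor in wild type has little room to fall. At wild-type levels of 0.5 CPM or less, 20.3% of genes rose and 4.37% fell. Above 100 CPM, 24.3% rose and 41.6% fell. All 3 swp73b libraries stood above all 3 wild-type libraries for 5760 genes (24.7%) and below them for 6165 (26.5%). The balance between rises and falls depends on the scaling. When libraries were scaled to their totals instead of by TMM, an alternative chosen after seeing the data, 6950 genes rose and 4411 fell, so that rises made up 61.2% of calls instead of 48.3%, and the median of all genes moved to 0.10.

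**Figure D2:**
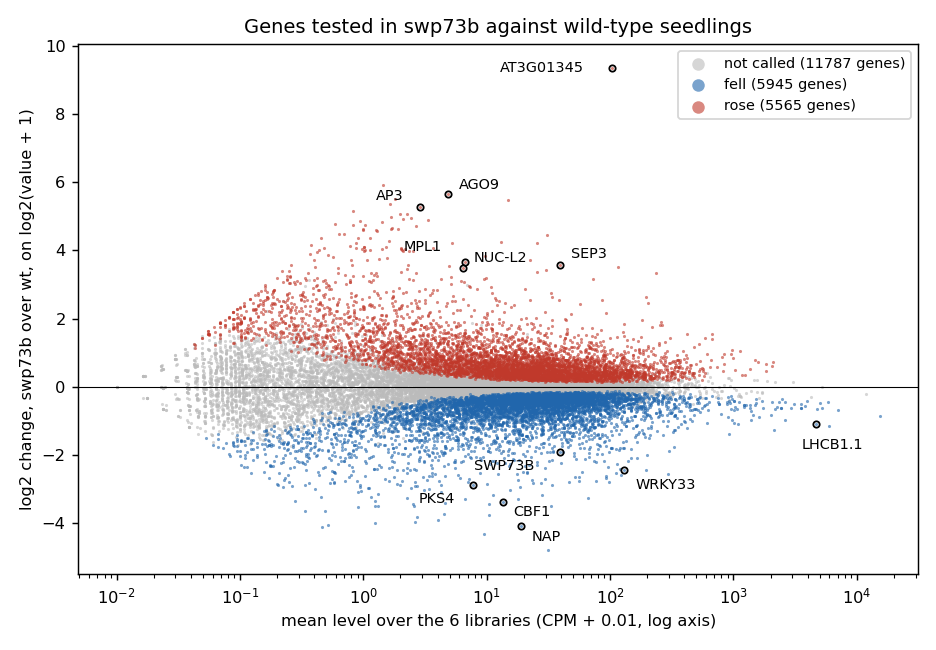
Log2 change (swp73b over wt, vertical axis) against mean level over the 6 libraries (CPM, log axis) for the 23297 genes tested, with the 5565 genes that rose and the 5945 that fell in colour. The upper tail is longer than the lower one, with 10 genes up and 0 down by at least 32-fold.

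The largest rises among genes with a symbol and a mean deposited value of at least 50 included genes known from flowers, pollen and seeds. The first was AGO9 (AT5G21150), an Argonaute protein of the ovule that binds small RNAs against transposons, which had 8.82, 12.1 and 7.77 CPM in swp73b libraries, against 0.224, 0.047 and 0.237 CPM in wild-type libraries (log2 change 5.64 ± 0.40, limma adjusted p = 9.17e-12). AP3 (AT3G54340), the homeotic factor of petals and stamens, had 3.53, 8.92 and 4.21 CPM in swp73b libraries, against 0.091, 0.001 and 0.362 CPM in wild-type libraries (log2 change 5.26 ± 0.59, limma adjusted p = 3.63e-08). GRP19 (AT5G07550), an oleosin-like protein of the pollen coat, had 3.65, 5.71 and 10.03 CPM in swp73b libraries, against 0.180, 0.091 and 0.237 CPM in wild-type libraries (log2 change 4.88 ± 0.56, limma adjusted p = 5.47e-08). All 3 genes were close to the detection limit in every wild-type library. Genes known from seeds and their coats followed, with PER1 (AT1G48130), a seed peroxiredoxin, at 7.03 CPM in swp73b against 0.363 CPM in wild type and DELTA-VPE (AT3G20210), a protease of the seed coat, at 4.41 CPM in swp73b against 0.242 CPM in wild type. PER1 varied widely within the mutant, from 2.42 to 11.8 CPM, whereas DELTA-VPE kept to 3.67 to 4.85 CPM.

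SEP3 (AT1G24260), a MADS factor that forms complexes with the other floral organ factors, had 61.9, 84.3 and 72.7 CPM in swp73b libraries, against 5.71, 4.69 and 8.44 CPM in wild-type libraries (log2 change 3.56 ± 0.26, limma adjusted p = 1.08e-11). The libraries of each group lay close together, and the gap between the groups was many times their spread. NUC-L2 (AT3G18610), a nucleolin-like protein that is normally little expressed beside NUC-L1, had 10.5, 12.9 and 11.97 CPM in swp73b libraries, against 1.48, 0.681 and 1.01 CPM in wild-type libraries (log2 change 3.49 ± 0.25, limma adjusted p = 9.17e-12). BAM5 (AT4G15210), a beta-amylase, had 110.1, 217 and 319.9 CPM in swp73b libraries, against 12.1, 18.5 and 22.8 CPM in wild-type libraries (log2 change 3.51 ± 0.85, limma adjusted p = 0.00107), a rise seen in every swp73b library with a wide spread among them. GOLS3 (AT1G09350), a galactinol synthase known from cold treatment, had 72.7, 51.1 and 41.9 CPM in swp73b libraries, against 4.096, 5.13 and 5.76 CPM in wild-type libraries (log2 change 3.43 ± 0.56, limma adjusted p = 9.72e-06). It rose while the cold regulators described further on fell. Defence-related genes in the same ranking were NATA1 (AT2G39030), an acetyltransferase induced by jasmonate, BG3 (AT3G57240), a beta-1,3-glucanase, AACT1 (AT5G61160), an acyltransferase of antimicrobial amides, and PDF1.3 (AT2G26010), a plant defensin, with log2 changes of 4.25 ± 1.096, 3.98 ± 0.57, 3.73 ± 0.56 and 3.58 ± 0.75. NATA1 was uneven, and swp73b replicate 3 stood at 53.2 CPM beside 7.55 and 9.92 CPM in the other swp73b libraries, and wt replicate 2 stood at 6.47 CPM beside 0.24 and 0.27 CPM. BGLU19 (AT3G21370), a beta-glucosidase, completed the 15 largest rises with a log2 change of 4.23 ± 0.86.

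A single gene without a symbol went far beyond these. AT3G01345, picked after its values were seen, had 204, 206 and 209.9 CPM in swp73b libraries, against 0.314, 0.182 and 0.355 CPM in wild-type libraries (log2 change 9.34 ± 0.85, limma adjusted p = 9.42e-10). It was almost constant within the mutant and almost silent in wild type. Means of the other 10 mutants ran from 0.445 to 74.7 CPM, all below the 3 swp73b libraries. Beyond this gene, 21 loci, also picked after their values were seen, had 0 reads in every wild-type library and at least 4 reads in every swp73b library, and no locus showed the opposite. CYP96A15 (AT1G57750), an oxidase of stem wax alkanes, had the most reads among those with a symbol, 217 reads in swp73b and 0 in wild type, at least 66.1-fold higher against a floor of 3 reads over the group. MYB113 (AT1G66370), a regulator of anthocyanin synthesis, had 56 reads in swp73b and 0 in wild type, at least 17.1-fold higher.

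Among the falls, with the same filter of symbol and level, the first was NAP (AT1G69490), a NAC factor that promotes leaf senescence. It had 1.96, 2.64 and 1.63 CPM in swp73b libraries, against 35.2, 42.3 and 29.6 CPM in wild-type libraries (log2 change -4.09 ± 0.25, limma adjusted p = 6.05e-13). The groups were far apart, and no swp73b library came near the wild-type range. PKS4 (AT5G04190), a phytochrome-binding protein of seedling growth orientation, had 1.71, 1.88 and 1.76 CPM in swp73b libraries, against 15.003, 15.3 and 10.8 CPM in wild-type libraries (log2 change -2.89 ± 0.18, limma adjusted p = 1.02e-12), with the swp73b libraries nearly equal. ERF8 (AT1G53170), a transcriptional repressor of the ethylene response factor family, had 8.79, 10.6 and 5.54 CPM in swp73b and 64.9, 57.2 and 55.1 CPM in wild type, and PUB19 (AT1G60190), a ubiquitin ligase of drought responses, had 14.7, 24.7 and 4.85 CPM in swp73b and 125, 119 and 106 CPM in wild type. Both groups of 3 were fully separated in these genes, with log2 changes of -2.87 ± 0.26 and -3.27 ± 0.61. The ranking also held CBF1 (AT4G25490) and CBF2 (AT4G25470), factors that switch on cold-regulated genes, which fell by 3.37 and 3.29 on the log2 scale. DDF1 (AT1G12610), a close relative, fell by 3.96, NAC019 (AT1G52890) fell by 2.86 and FBS1 (AT1G61340), a stress-induced F-box protein, fell by 2.83. DDF1 was uneven in wild type, with 11.6 CPM in replicate 1 beside 1.24 and 1.90 CPM. The expansin family members in it were EXLB1 (AT4G17030) at 0.802 CPM in swp73b against 8.38 CPM in wild type and EXPA16 (AT3G55500) at 3.45 CPM in swp73b against 27.2 CPM in wild type. The 15 largest falls were completed by P1R3, GLC, PCC1 and TPS12, with log2 changes of -3.90, -3.01, -2.93 and -2.92.

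**Figure D3:**
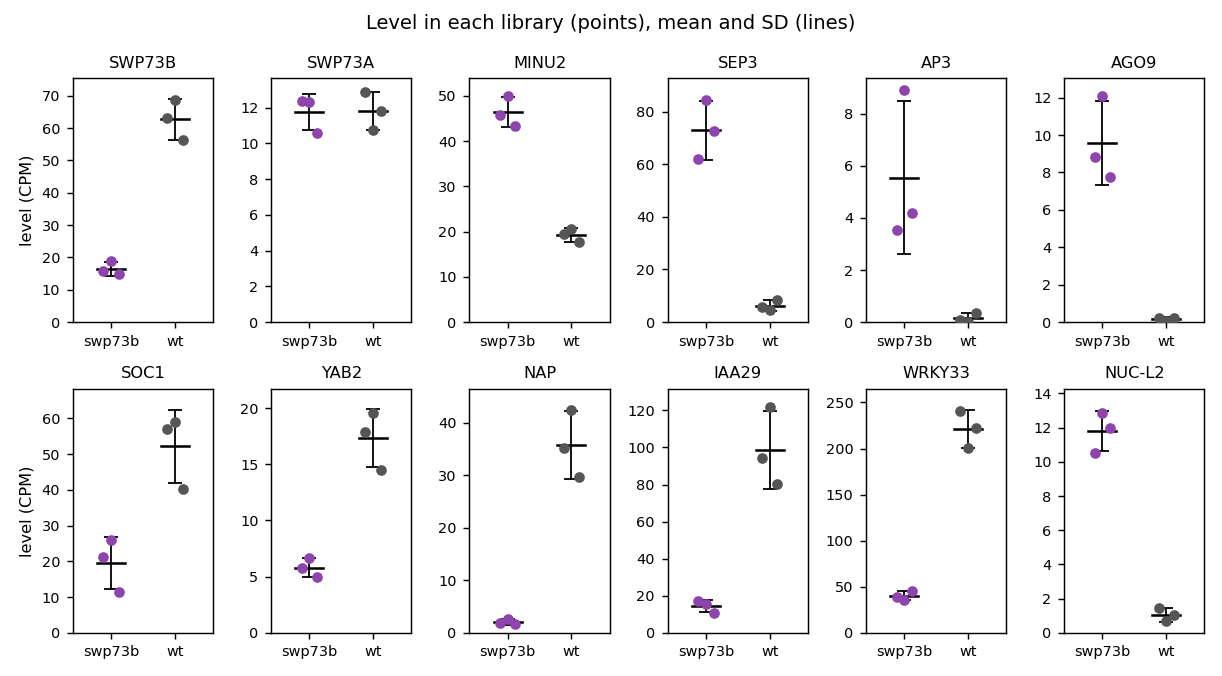
Levels (CPM, vertical axis) of named genes in each of the 3 swp73b libraries (left of each panel) and 3 wild-type libraries (right), with the group mean and SD as lines. SWP73B and NAP are lower and MINU2, AP3, SEP3 and NUC-L2 higher in all 3 swp73b libraries than in all 3 wild-type libraries, while SWP73A overlaps.

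The 5 genes of largest rise in absolute level were PYK10, GAPC2, FSD1, AAC1 and SAMDC. PYK10 (AT3G09260), the beta-glucosidase of root endoplasmic reticulum bodies, had 3183, 2203 and 2416 CPM in swp73b libraries, against 1489.6, 1403 and 1803 CPM in wild-type libraries (log2 change 0.72 ± 0.14, limma adjusted p = 7.92e-05). GAPC2 (AT1G13440), a glycolytic dehydrogenase, FSD1 (AT4G25100), an iron superoxide dismutase, AAC1 (AT3G08580), the mitochondrial ADP/ATP carrier, and SAMDC (AT3G02470), an enzyme of polyamine synthesis, rose by 0.61, 0.68, 0.77 and 0.71. The 5 genes of largest fall in level, LHCB1.3, CAB3, LHCB1.1, LHCA4 and LHCB5, encode light-harvesting proteins and had log2 changes of -0.85 ± 0.25, -1.15 ± 0.19, -1.09 ± 0.19, -0.69 ± 0.19 and -0.62 ± 0.17. LHCB1.3, CAB3 and LHCB1.1 are near-identical copies, so the split of reads between them is uncertain. When the fit used only the 6 libraries compared, LHCB1.3, LHCA4 and LHCB5 lost their calls (limma adjusted p = 0.316, 0.221 and 0.215).

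In all, 29 lists of genes of known function were followed, with 511 members tested, of which 145 rose, 166 fell and 200 were not called. Counts of members are to be read beside the 23.9% of all tested genes that rose and the 25.5% that fell, and list medians beside the median of -0.01 over all genes. Seedlings hold many cell types, and in such bulk samples fewer cells of a type and less RNA per cell cannot be told apart. Summed marker levels for green tissue and root hairs differed between the groups, and those for root tip and endodermis overlapped. Of 14 green tissue markers 12 fell and 1 rose, with summed levels of 42950 to 57250 CPM in swp73b libraries and 60390 to 89360 CPM in wild-type libraries. Most of these falls lost their call in the fit of the 6 libraries alone, LHCA1 and LHCB3 among them (limma adjusted p = 0.179 and 0.340). Of 11 root hair markers 7 rose, with sums of 249.8 to 388 CPM in swp73b and 110.4 to 175.5 CPM in wild type. Of 11 root tip and endodermis markers 4 rose (2 without swp73b replicate 1), and their sums overlapped, at 129 to 157 CPM in swp73b and 114 to 162 CPM in wild type. The part of these shifts in the results below was not tested.

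**Figure D4:**
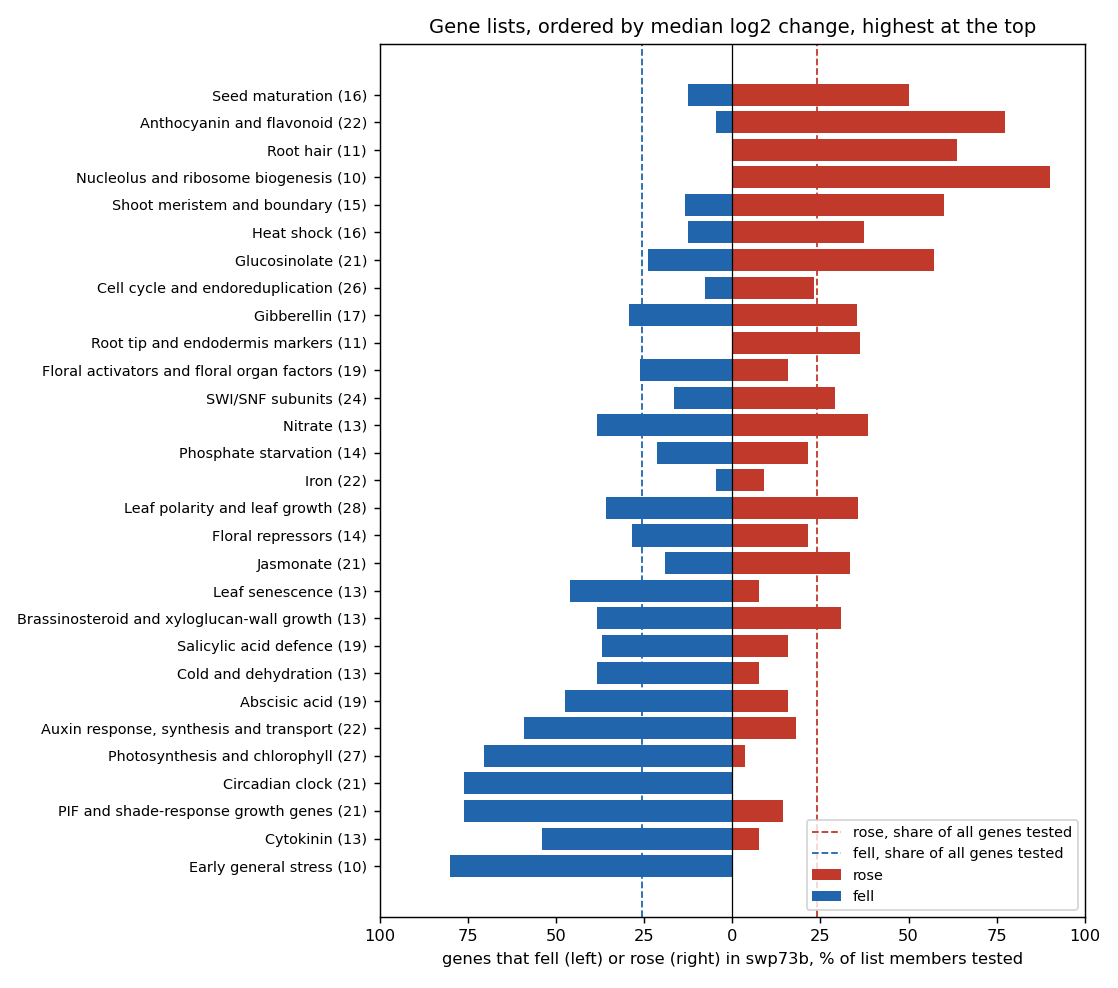
Share of the tested members of each gene list that fell (left of 0) or rose (right of 0) in swp73b, in percent, with lists ordered by median log2 change, highest at the top, and lines at the shares of all tested genes. The seed, anthocyanin, root hair and nucleolus lists lie at the top and the early stress list at the bottom.

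Individual floral genes rose and others fell. Of 19 activators and floral organ factors tested 3 rose (15.8%) and 5 fell (26.3%), beside 23.9% and 25.5% of all tested genes. The rises were AP3 and SEP3, described above, and SHP2 (AT2G42830), a factor of carpels and fruits, with 14 reads in swp73b and 0 in wild type, at least 4.26-fold higher. SOC1 (AT2G45660), which brings flowering signals together at the shoot apex, had 21.1, 26.02 and 11.5 CPM in swp73b libraries, against 57.1, 59.01 and 40.3 CPM in wild-type libraries (log2 change -1.48 ± 0.23, limma adjusted p = 5.99e-06). FD (AT4G35900), the partner of the florigen FT, had 2.19 ± 0.177 CPM in swp73b and 6.25 ± 0.757 CPM in wild type (log2 change -1.49 ± 0.15, limma adjusted p = 6.55e-09). FUL (AT5G60910) and AGL24 (AT4G24540), MADS factors of the floral transition, fell by 2.18 and 1.98, and SEP4 fell by 1.13. The organ factor AG (AT4G18960) and the meristem factor AP1 (AT1G69120) did not pass the test at 0.116 and 0.222 CPM in swp73b, against 0.300 and 0.171 CPM in wild type. Thus AP3 and SEP3 were higher while SOC1, FD, FUL and AGL24 were lower in the same libraries. Of 14 floral repressors 3 rose and 4 fell, 21.4% and 28.6%. These shares of rises and falls are near the background or below it, and are no result about floral genes as a group. SVP (AT2G22540), a repressor that responds to temperature, fell by 0.57, with 50.6 ± 10.05 CPM in swp73b and 74.5 ± 8.67 CPM in wild type, and TEM2 fell by 0.99. TOE2, an AP2-like repressor, rose by 0.91, with 70.5 ± 4.07 CPM in swp73b and 37.4 ± 2.85 CPM in wild type. FLC (AT5G10140), the repressor removed by vernalization, was at 0.261 CPM in swp73b against 0.357 CPM in wild type and did not pass the test.

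Leaf polarity and leaf growth genes moved in both directions, with 10 of 28 up and 10 down. The 4 YABBY factors of the lower leaf side in the list fell, YAB1 (AT2G45190) by 1.09, YAB2 (AT1G08465) by 1.57, YAB3 (AT4G00180) by 0.97 and YAB5 (AT2G26580) by 0.60. YAB2, for example, had 5.801, 6.63 and 4.97 CPM in swp73b libraries, against 17.9, 19.6 and 14.5 CPM in wild-type libraries. The NGATHA factors, which shape leaf margins and the style, fell in 3 of 4 cases, led by NGA1 (AT2G46870), with 3.77, 3.25 and 2.797 CPM in swp73b and 12.5, 11.03 and 9.56 CPM in wild type (log2 change -1.74 ± 0.17, limma adjusted p = 2.28e-09). The exception was NGA4, which rose to 0.609 CPM in swp73b against 0.154 CPM in wild type. On the other side, AS2 (AT1G65620), which with AS1 keeps meristem genes off in leaves, had 4.03, 6.36 and 6.78 CPM in swp73b libraries, against 1.396, 1.67 and 1.804 CPM in wild-type libraries (log2 change 1.76 ± 0.27, limma adjusted p = 3.47e-06), and AS1 rose by 0.62. ARF3 (AT2G33860) and ARF4 (AT5G60450), auxin response factors of the lower side, rose by 0.53 and 0.68, and KAN1 rose by 0.54 while KAN3 fell by 1.14. TCP4, TCP10, TCP3 and TCP24, which limit leaf cell division, did not pass the test, with log2 changes between -0.07 and -0.01. TCP2 of the same family fell, at 28.0 CPM in swp73b against 37.5 CPM in wild type. Its call was lost without swp73b replicate 3 (limma adjusted p = 0.0915). All 4 YABBY falls and the rises of AS1, AS2, ARF3 and ARF4 held in every alternative fit.

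Shoot meristem and organ boundary genes mostly rose from low levels, 9 of 15 tested, with 2 falls and a median log2 change of 0.63. Some of the rises depended on single libraries. KNAT2 and LOB lost their calls without swp73b replicate 2 (limma adjusted p = 0.148 and 0.0540), and KNAT6 without swp73b replicate 3 (limma adjusted p = 0.0919). BOP1 (AT3G57130), which marks the boundary at the leaf base, had 2.41, 2.35 and 1.90 CPM in swp73b libraries, against 0.403, 0.404 and 0.149 CPM in wild-type libraries (log2 change 2.74 ± 0.39, limma adjusted p = 1.57e-06). CUC2 (AT5G53950) and CUC1 (AT3G15170), which separate organs, were at 0.898 CPM in swp73b against 0.086 CPM in wild type and 0.702 CPM in swp73b against 0.173 CPM in wild type, with log2 changes of 2.92 ± 0.59 and 1.79 ± 0.38. STM (AT1G62360), which keeps meristem cells from differentiating, was at 1.29 CPM in swp73b against 0.415 CPM in wild type (log2 change 1.52 ± 0.43, limma adjusted p = 0.00386). ATH1 (AT4G32980), a homeodomain factor of the shoot apex, had 31.3, 38.5 and 27.2 CPM in swp73b libraries, against 15.7, 15.5 and 13.7 CPM in wild-type libraries (log2 change 1.09 ± 0.12, limma adjusted p = 3.32e-08), and its groups did not overlap. CLV1 (AT1G75820), the receptor that limits the stem cell pool, fell by 0.53, at 76.6 CPM in swp73b against 111 CPM in wild type. LAS, a factor of side shoots, fell by 0.97. The summed level of the list overlapped between the groups, at 151.4 to 191.5 CPM in swp73b libraries and 158.1 to 205.3 CPM in wild-type libraries. The stem cell genes WUS and CLV3 had 0 reads in every wild-type library and stayed below the level tested. Of the 6 shoot meristem markers 4 were tested and 3 rose, and their summed level was 2.72 to 4.35 CPM in swp73b libraries and 0.992 to 1.37 CPM in wild-type libraries. Their part in the other results was not tested. Most cell cycle genes were not called, with 6 rises and 2 falls among 26. CYCD3;3 (AT3G50070), a D-type cyclin of leaf cell proliferation, had 26.02 ± 2.34 CPM in swp73b and 13.4 ± 0.465 CPM in wild type (log2 change 0.95 ± 0.09, limma adjusted p = 8.77e-10), and CCS52A2, an activator of the anaphase-promoting complex, fell by 0.61. Only CYCD3;3 and DEL1 kept their rise in every alternative fit of this list, which had 2 rises without wt replicate 1, 3 without swp73b replicate 2 and 3 in the fit of the 6 libraries alone.

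Growth genes downstream of light signals fell. PIF factors are bHLH proteins that drive stem elongation in shade and warmth, and of 21 members and targets tested 16 fell and 3 rose, with a median log2 change of -0.71. Some falls depended on single libraries. Without swp73b replicate 3, ATHB2, CKX5, EXPA8, HFR1 and PRE5 lost their calls (limma adjusted p = 0.0721, 0.196, 0.0624, 0.0557 and 0.0549). PIF3 lost its call without swp73b replicate 1 (limma adjusted p = 0.106), and XTH15 without swp73b replicate 2 (limma adjusted p = 0.0751). PIF4 (AT2G43010) had 113, 114 and 79.5 CPM in swp73b libraries, against 243, 248 and 180.5 CPM in wild-type libraries (log2 change -1.14 ± 0.15, limma adjusted p = 4.88e-07), and PIF5 and PIF7 fell by 0.60 and 0.72. IAA29 (AT4G32280), an early shade target, had 17.3, 15.5 and 10.6 CPM in swp73b libraries, against 94.1, 122 and 80.1 CPM in wild-type libraries (log2 change -2.77 ± 0.22, limma adjusted p = 5.44e-11). The lowest wild-type library was well above the highest swp73b library. YUC9 (AT1G04180), an auxin-synthesis enzyme induced by shade, had 11.8 ± 2.44 CPM in swp73b and 40.9 ± 8.89 CPM in wild type (log2 change -1.78 ± 0.21, limma adjusted p = 7.20e-08), and PAR1, a brake on the shade response, fell by 1.41. The rises went to HY5 (AT5G11260), the factor that opposes PIFs in the light, by 0.64, to EXPA11, an expansin, by 0.86, and to PIL1 (AT2G46970), a relative of the PIFs and a shade marker. PIL1 had 84.1, 81.1 and 60.5 CPM in swp73b libraries, against 26.9, 27.5 and 27.6 CPM in wild-type libraries (log2 change 1.45 ± 0.27, limma adjusted p = 4.90e-05), opposite to IAA29 and YUC9.

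Auxin genes fell with them, 13 of 22 tested, with 4 rises and a median log2 change of -0.49. Of 7 Aux/IAA repressors, which auxin itself induces, 5 fell. IAA2 (AT3G23030) had 101, 106 and 102 CPM in swp73b libraries, against 308, 305 and 242 CPM in wild-type libraries (log2 change -1.46 ± 0.12, limma adjusted p = 6.18e-11), and IAA1, IAA5, IAA6 and IAA7 fell by 1.54, 1.47, 2.69 and 0.99. IAA3 and IAA17 did not pass the test, with log2 changes of -0.29 ± 0.15 and -0.04 ± 0.08. GH3.5 (AT4G27260), which conjugates auxin to amino acids, had 38.1, 47.8 and 31.3 CPM in swp73b libraries, against 184, 227 and 151 CPM in wild-type libraries (log2 change -2.26 ± 0.18, limma adjusted p = 6.60e-11). Of the auxin efflux carriers, PIN4, PIN3 and PIN7 fell by 1.37, 0.74 and 0.47. TAA1 (AT1G70560), the first enzyme of auxin synthesis, rose by 0.86, with 16.2 ± 1.11 CPM in swp73b and 8.94 ± 0.657 CPM in wild type. The count of rises in this list was 2 without swp73b replicate 1, swp73b replicate 3, wt replicate 1 or wt replicate 2, and TAA1 and DAO1 kept their calls in all of these.

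Other growth hormones gave mixed results. Of 13 cytokinin genes 7 fell and 1 rose. ARR7 (AT1G19050), a feedback inhibitor that cytokinin induces, had 9.69, 9.69 and 6.601 CPM in swp73b and 29.8, 21.8 and 29.3 CPM in wild type (log2 change -1.64 ± 0.24, limma adjusted p = 1.78e-06), ARR4 and ARR5 fell by 0.72 and 0.94, and CKX4 (AT4G29740), a cytokinin oxidase, fell by 1.81. IPT3, a synthesis enzyme, rose by 0.61. Without swp73b replicate 2 the counts were 4 falls and 3 rises. Of 17 gibberellin genes 6 rose and 5 fell. Synthesis enzymes differed among themselves, with GA20OX3 (AT5G07200) at 2.17 CPM in swp73b against 0.227 CPM in wild type (log2 change 3.12 ± 0.50, limma adjusted p = 7.66e-06), GA20OX2 up by 1.16, GA3OX1 up by 0.97 and GA20OX1 down with a log2 change of -1.13. The DELLA repressors of growth also split, GAI (AT1G14920) having 56.8, 53.5 and 44.5 CPM in swp73b and 113, 133 and 85.4 CPM in wild type (log2 change -1.08 ± 0.13, limma adjusted p = 1.15e-07), RGA falling by 0.38, and RGL2 and RGL1 rising by 1.33 and 0.49. Of 13 brassinosteroid and wall genes 4 rose and 5 fell. CPD (AT5G05690), an enzyme of brassinosteroid synthesis, had 122, 114 and 86.3 CPM in swp73b libraries, against 334, 356 and 234 CPM in wild-type libraries (log2 change -1.51 ± 0.15, limma adjusted p = 4.40e-09), and the receptor BRI1 fell by 0.62. EXO (AT4G08950), a growth protein induced by brassinosteroid, rose to 93.7 CPM in swp73b against 38.9 CPM in wild type.

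Stress regulators were lower in swp73b, and the early general stress list was the lowest of the 29 by median, at -1.49, with 8 of 10 members down and 0 up. WRKY33 (AT2G38470), a factor of fungal defence, had 39.3, 36.1 and 45.8 CPM in swp73b libraries, against 241, 201 and 222 CPM in wild-type libraries (log2 change -2.46 ± 0.38, limma adjusted p = 4.29e-06). WRKY40 (AT1G80840), a factor induced by many stresses, had 5.54, 5.07 and 9.90 CPM in swp73b libraries, against 68.6, 32.2 and 45.1 CPM in wild-type libraries (log2 change -2.82 ± 0.496, limma adjusted p = 2.75e-05), and SZF1 (AT3G55980), a zinc-finger protein of salt stress, had 30.8, 25.7 and 37.2 CPM in swp73b libraries, against 204, 134 and 148 CPM in wild-type libraries (log2 change -2.37 ± 0.35, limma adjusted p = 2.56e-06). The groups did not overlap in any of these. ZAT10, ERF6 and CAF1A fell by 1.62, 1.35 and 1.34. RRTF1 fell by 2.85 and lost its call without wt replicate 1 (limma adjusted p = 0.167). In the cold list, CBF1, CBF2 and CBF3 fell by 3.37, 3.29 and 1.89. Of their known targets, COR15A, COR47 and RD29A did not pass the test, with log2 changes of -0.34 ± 0.33, -0.15 ± 0.18 and 0.41 ± 0.29. KIN1 of the same list fell, at 9.03 CPM in swp73b against 18.0 CPM in wild type. Its call was lost without swp73b replicate 1 or 3 (limma adjusted p = 0.0595 and 0.0584) or wt replicate 1 (0.0638). In all 5 of 13 cold genes fell and 1, GOLS3, rose.

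Of 19 abscisic acid genes tested 9 fell and 3 rose, with phosphatases among the falls and receptors in both groups. NCED3 (AT3G14440), the stress-induced enzyme of abscisic acid synthesis, had 28.2, 49.4 and 10.4 CPM in swp73b libraries, against 176, 177 and 121 CPM in wild-type libraries (log2 change -2.67 ± 0.396, limma adjusted p = 2.51e-06). The phosphatases ABI1 (AT4G26080) and ABI2 (AT5G57050), which block the signal and are themselves induced by it, had 58.7 ± 14.5 CPM in swp73b and 199 ± 11.1 CPM in wild type for ABI1 and 10.6 ± 5.13 CPM in swp73b and 33.1 ± 2.81 CPM in wild type for ABI2, with log2 changes of -1.79 ± 0.24 and -1.75 ± 0.25. The receptors PYL6 (AT2G40330), PYL4 and PYL5 rose by 2.52, 0.896 and 0.79, and PYL5 lost its call without swp73b replicate 3 (limma adjusted p = 0.0532). PYR1, another receptor, fell by 0.34, a call lost without swp73b replicate 1 (limma adjusted p = 0.119) or replicate 2 (0.0503) and without wt replicate 1 (0.0627). RAB18 and RD29B, late response genes, did not pass the test, with log2 changes of -0.52 ± 0.45 and 0.08 ± 0.52. Senescence genes were lower too, 6 of 13, with ORE1 (AT5G39610) and ORS1 (AT3G29035), NAC factors beside NAP, down by 1.62 and 1.64 and DIN1 (AT4G35770), a gene of darkness and sugar starvation, down by 1.21. SAG29 was the 1 that rose, to 22.99 CPM in swp73b against 8.66 CPM in wild type, and 2 rose without swp73b replicate 2, wt replicate 2 or wt replicate 3.

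Defence hormone genes also moved in both directions. Of 21 jasmonate genes 7 rose and 4 fell. AOC2 (AT3G25770), an enzyme of jasmonate synthesis, had 369, 331 and 368 CPM in swp73b libraries, against 125, 171 and 145 CPM in wild-type libraries (log2 change 1.29 ± 0.23, limma adjusted p = 2.71e-05). ORA59 (AT1G06160), which joins the jasmonate and ethylene signals, had 7.17, 8.49 and 11.9 CPM in swp73b libraries, against 1.35, 1.17 and 1.69 CPM in wild-type libraries (log2 change 2.66 ± 0.28, limma adjusted p = 1.09e-08), and its target PDF1.2, a defensin, was at 3.66 CPM in swp73b against 0.491 CPM in wild type (log2 change 3.97 ± 0.91, limma adjusted p = 6.21e-04). JAZ1 (AT1G19180), a repressor that jasmonate induces, fell by 1.51, with 42.4 ± 2.004 CPM in swp73b and 124 ± 32.7 CPM in wild type, and ERF1 fell by 2.27. Without wt replicate 1 the list had 4 rises, and without wt replicate 2 it had 7 falls. Of 19 salicylic acid genes 3 rose and 7 fell. WRKY70 (AT3G56400), a factor that favours salicylic acid over jasmonate responses, had 3.75, 3.94 and 6.24 CPM in swp73b libraries, against 33.2, 38.8 and 22.1 CPM in wild-type libraries (log2 change -2.75 ± 0.296, limma adjusted p = 1.65e-08). NPR1, the receptor, fell by 0.74. PR5 (AT1G75040), a thaumatin-like protein, had 21.4, 17.7 and 30.9 CPM in swp73b and 3.11, 9.68 and 2.26 CPM in wild type (log2 change 2.46 ± 0.39, limma adjusted p = 5.32e-06). PR1 (AT2G14610) and PR2 (AT3G57260) had groups that overlapped and did not pass the test, with 0.691, 0.513 and 34.2 CPM in swp73b and 0.058, 5.84 and 0.005 CPM in wild type for PR1 and 14.6, 11.3 and 42.1 CPM in swp73b and 2.15, 55.1 and 2.297 CPM in wild type for PR2. For both genes swp73b replicate 3 was the highest mutant library and wt replicate 2 the highest wild-type library. Without wt replicate 2 the list had 6 rises.

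Photosynthesis genes fell by small factors, 19 of 27 tested with 1 rise and a median log2 change of -0.50. RBCS3B (AT5G38410), a small subunit of Rubisco, had 2045, 1679 and 1540.5 CPM in swp73b libraries, against 4013, 3976 and 2472 CPM in wild-type libraries (log2 change -0.97 ± 0.17, limma adjusted p = 4.03e-05), and RBCS1B (AT5G38430) was the 1 that rose, with 468 ± 6.28 CPM in swp73b and 277 ± 44.97 CPM in wild type. RBCS1A, another copy, was at 10920.2 CPM in swp73b against 12908 CPM in wild type and did not pass the test, and since the copies are alike the split of reads among them is uncertain. The regulators GLK1 and GLK2 did not pass the test, with log2 changes of 0.17 ± 0.14 and -0.06 ± 0.15. The count rests on the spread taken from all 36 libraries. Fitted on the 6 libraries alone, 3 of these genes fell, and 12 fell without swp73b replicate 3 (with 2 rises) or without wt replicate 2. Replicate 3 was the lowest swp73b library for 26 of the 27 genes and the lowest wild-type library for all 27. LHCA4, for example, had 6045, 5605 and 4393 CPM in swp73b libraries, against 9618, 9688 and 6751 CPM in wild-type libraries.

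Of 21 clock genes tested 16 fell and 0 rose, with a median log2 change of -0.70. CCA1 (AT2G46830), a factor of dawn, had 21.7, 26.2 and 10.2 CPM in swp73b libraries, against 47.9, 38.6 and 44.3 CPM in wild-type libraries (log2 change -1.27 ± 0.24, limma adjusted p = 8.18e-05), whereas LHY, its close relative, had 7.97, 8.15 and 7.76 CPM in swp73b and 6.74, 5.09 and 6.495 CPM in wild type and did not pass the test. PRR7 (AT5G02810), expressed in the morning, had 123, 149.9 and 106 CPM in swp73b libraries, against 235, 200.4 and 181 CPM in wild-type libraries (log2 change -0.71 ± 0.12, limma adjusted p = 1.62e-05), and TOC1 (AT5G61380), expressed in the evening, had 47.9, 54.8 and 47.5 CPM in swp73b libraries, against 84.5, 70.2 and 69.4 CPM in wild-type libraries (log2 change -0.57 ± 0.09, limma adjusted p = 3.91e-06). GI and LUX, of the evening, did not pass the test, with log2 changes of 0.05 ± 0.09 and -0.14 ± 0.10. The labels do not give the hour of harvest. RVE4 and RVE8, activators of evening genes, fell by 1.22 and 0.63, and the blue-light receptors ZTL and FKF1 fell by 0.52 and 1.07. Heat-shock genes leaned the other way, 6 of 16 up and 2 down. HSP18.2 (AT5G59720), a small chaperone, had 12.8, 20.9 and 20.8 CPM in swp73b libraries, against 3.46, 3.02 and 4.99 CPM in wild-type libraries (log2 change 2.23 ± 0.21, limma adjusted p = 1.33e-09), and HSP70 (AT3G12580) had 94.6, 77.5 and 74.7 CPM in swp73b and 26.2, 37.8 and 35.97 CPM in wild type (log2 change 1.31 ± 0.24, limma adjusted p = 3.53e-05). DREB2A, a factor of heat and drought, fell by 1.12, and was the 1 fall left without swp73b replicate 1, swp73b replicate 3 or wt replicate 1. Without swp73b replicate 3, 1 clock gene rose.

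Anthocyanin and flavonoid genes mostly rose, 17 of 22 tested with 1 fall and a median log2 change of 1.21. Early enzymes that feed all flavonoids rose moderately, C4H by 0.54 and CHI (AT3G55120) by 1.42, the second with 27.1, 27.3 and 30.5 CPM in swp73b and 10.2, 12.01 and 9.56 CPM in wild type. Late enzymes that lead to anthocyanin rose more. LDOX (AT4G22880), which makes anthocyanidins, had 17.97, 21.6 and 20.7 CPM in swp73b libraries, against 5.55, 3.96 and 1.796 CPM in wild-type libraries (log2 change 2.54 ± 0.49, limma adjusted p = 8.20e-05), and TT19 (AT5G17220), which carries anthocyanin to the vacuole, had 10.2, 13.1 and 12.5 CPM in swp73b libraries, against 2.33, 2.38 and 1.95 CPM in wild-type libraries (log2 change 2.402 ± 0.53, limma adjusted p = 3.74e-04). UF3GT, UGT75C1 and 5MAT, which decorate the pigment, rose by 2.77, 2.25 and 2.52. Their regulator PAP1 (AT1G56650), a MYB factor, had 4.17, 4.797 and 2.97 CPM in swp73b libraries, against 1.47, 0.766 and 0.255 CPM in wild-type libraries (log2 change 2.46 ± 0.63, limma adjusted p = 0.00180), and its bHLH partner TT8 (AT4G09820) was at 1.56 CPM in swp73b against 0.415 CPM in wild type. PAP2 had 35 reads in swp73b and 3 in wild type, a ratio of 10.7 with an exact 95% counting interval of 3.36 to 54.2. MYBL2 (AT1G71030), the repressor of the pathway, was the 1 that fell, with 29.8, 26.6 and 12.4 CPM in swp73b libraries, against 68.3, 74.8 and 40.2 CPM in wild-type libraries (log2 change -1.46 ± 0.29, limma adjusted p = 1.08e-04). DFR rose by 1.68, a call lost without wt replicate 3 (limma adjusted p = 0.0944). Without swp73b replicate 1 or wt replicate 1 the list had 2 falls.

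Glucosinolate genes rose in 12 of 21 cases and fell in 5. The factors of the aliphatic, methionine-derived branch, MYB28 (AT5G61420) and MYB29 (AT5G07690), rose by 0.58 and 1.26, and CYP79F1 (AT1G16410), its first committed enzyme, had 114, 154 and 89.9 CPM in swp73b libraries, against 52.6, 47.2 and 50.1 CPM in wild-type libraries (log2 change 1.22 ± 0.23, limma adjusted p = 5.95e-05). MAM3, SOT17, SOT18, UGT74C1 and BASS5, which act in the same branch, rose by 0.91, 0.96, 0.52, 0.88 and 0.803. The factors of the indolic, tryptophan-derived branch MYB51 (AT1G18570) and MYB122 fell by 1.73 and 1.16, with 13.8, 17.2 and 17.5 CPM in swp73b and 54.2, 50.4 and 55.98 CPM in wild type for MYB51. MYB34 of that branch did not pass the test, with 42.1 ± 7.41 CPM in swp73b and 44.6 ± 13.9 CPM in wild type. The myrosinases TGG1 (AT5G26000) and TGG2, which break glucosinolates down after wounding, fell by 1.27 and 0.98. TGG1 had 1266 ± 437 CPM in swp73b and 2968 ± 784 CPM in wild type.

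Root hair genes rose in 7 of 11 cases with 0 falls and a median of 0.94. RHD6 (AT1G66470), which starts hair formation, had 7.04, 5.35 and 6.04 CPM in swp73b and 2.65, 2.88 and 3.21 CPM in wild type (log2 change 1.059 ± 0.23, limma adjusted p = 3.17e-04), and PRP3 (AT3G62680), a hair cell wall protein, had 139, 90.3 and 96.2 CPM in swp73b libraries, against 30.3, 51.9 and 53.6 CPM in wild-type libraries (log2 change 1.28 ± 0.23, limma adjusted p = 3.25e-05). Every swp73b library was above every wild-type library in these genes. Without wt replicate 1 the list had 1 fall. The highest PRP3 level was in swp73b replicate 1, as for the summed list at 388 CPM. SHR, which patterns the root, rose by 0.47. Nutrient lists showed few or divided changes. Of 22 iron genes 2 rose and 1 fell, the rises being NAS2 at 13.1 CPM in swp73b against 2.71 CPM in wild type and NAS4 at 12.6 CPM in swp73b against 6.19 CPM in wild type, both of which make the metal chelator nicotianamine. The iron transporter IRT1 and its regulator FIT did not pass the test, and 2 iron genes fell without swp73b replicate 1 or wt replicate 2. Of 14 phosphate genes 3 rose and 3 fell, and of 13 nitrate genes 5 rose and 5 fell. NRT2.1 (AT1G08090), a high-affinity nitrate transporter, had 17.9, 11.99 and 17.01 CPM in swp73b and 4.32, 6.73 and 2.42 CPM in wild type (log2 change 1.89 ± 0.27, limma adjusted p = 1.48e-06), while ASN1 (AT3G47340), an asparagine synthetase of darkness, had 151, 157 and 84.2 CPM in swp73b libraries, against 451, 619 and 349 CPM in wild-type libraries (log2 change -1.87 ± 0.26, limma adjusted p = 1.04e-06). Nitrate falls numbered 3 without wt replicate 2 and rises 3 without wt replicate 1.

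Seed maturation genes had the highest median of the 29 lists, 2.58, and the widest spread among the swp73b libraries. With SESA3, which had 0 reads in wild type, at its lower bound and CRU2 left out as at the floor, the median was 2.96. Of 16 tested 8 rose and 2 fell. CRA1 (AT5G44120), a storage globulin, had 0.401, 27.7 and 122 CPM in swp73b libraries, against 0.628, 0.541 and 0.546 CPM in wild-type libraries (log2 change 4.22 ± 1.52, limma adjusted p = 0.0220). Its call was lost without swp73b replicate 2 or 3 (limma adjusted p = 0.0866 and 0.206). CRU3, a second globulin, had 0, 12.1 and 77.5 CPM in swp73b and 0.001, 0.001 and 0.202 CPM in wild type, and its call was lost without swp73b replicate 2 or 3 (limma adjusted p = 0.125 and 0.262) and without wt replicate 1 or 2 (0.0976 and 0.0937). Oleosins coat seed oil bodies. OLEO2 (AT5G40420) had 0.336, 4.12 and 7.36 CPM in swp73b and 0.045, 0 and 0.039 CPM in wild type, or 307 reads in swp73b and 2 in wild type, a ratio of 140 with an exact 95% counting interval of 38.5 to 1160, and OLEO4 (AT3G27660) had 3.17, 4.75 and 4.47 CPM in swp73b libraries, against 0.140, 0.673 and 0.712 CPM in wild-type libraries (log2 change 3.15 ± 0.48, limma adjusted p = 3.36e-06). OLEO1 had 0.092, 4.07 and 8.28 CPM in swp73b and 0.045, 0 and 0 CPM in wild type, and its call was lost without swp73b replicate 3 (limma adjusted p = 0.0584). ABI3 (AT3G24650), a master regulator of seed maturation, had 0.441, 1.11 and 0.982 CPM in swp73b and 0.046, 0.090 and 0.159 CPM in wild type (log2 change 2.63 ± 0.86, limma adjusted p = 0.0121), and lost its call without wt replicate 1 (limma adjusted p = 0.0537). FUS3 (AT3G26790), another master regulator, was at 0.170 CPM in swp73b against 0.517 CPM in wild type and fell by 1.34. Without swp73b replicate 2, and also without swp73b replicate 3, 5 members rose, and without swp73b replicate 3 only 1 fell. Of 10 seed markers 5 rose, and their summed level was 5.18 to 223 CPM in swp73b libraries and 0.992 to 1.58 CPM in wild-type libraries, with CRU2 and SESA3 at 0 reads in wild type. Their part in the other results was not tested.

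Nucleolar genes rose together, 9 of 10 tested with 0 falls and a median of 0.80. NUC-L1 (AT1G48920), the main nucleolin, had 424, 453 and 454 CPM in swp73b libraries, against 236, 274 and 269.8 CPM in wild-type libraries (log2 change 0.78 ± 0.097, limma adjusted p = 1.82e-07). FIB2 (AT4G25630), a fibrillarin that guides methylation of ribosomal RNA, had 62.2, 61.1 and 89.03 CPM in swp73b libraries, against 26.1, 23.599 and 35.7 CPM in wild-type libraries (log2 change 1.31 ± 0.198, limma adjusted p = 3.21e-06), and its copy FIB1 rose by 0.30. NOP56 (AT1G56110), which works with fibrillarin, had 157 ± 12.5 CPM in swp73b and 82.6 ± 11.1 CPM in wild type (log2 change 0.93 ± 0.13, limma adjusted p = 1.37e-06), and CBF5, the enzyme that makes pseudouridine in ribosomal RNA, rose by 0.78. APUM23 did not pass the test, with 32.6 ± 2.49 CPM in swp73b and 30.3 ± 1.35 CPM in wild type. The summed level of the list was 1012 to 1135 CPM in swp73b libraries, against 585.4 to 703.6 CPM in wild-type libraries, and the groups did not overlap.

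The swp73b libraries were also set against the mean of the other 10 mutants of the series, which carry mutations of other SWI/SNF subunits. By this contrast, 11224 of 23297 genes (48.2%) were called, 5423 (23.3%) higher and 5801 (24.9%) lower in swp73b. Both contrasts use the same swp73b libraries and are not independent. The root mean square log2 difference of mean profiles was 0.61 between swp73b and swi3d, the smallest among the 11 other genotypes, 0.67 for minu12, 0.70 for pms2ab, 0.73 for brm and 0.80 for wild type, and 0.93 for brip12, the largest. The targeted transcript was not lower than in wild type in the libraries labelled syd and an3, with SYD at 240 CPM against 146 CPM and AN3 at 6.65 CPM against 6.55 CPM. Without these genotypes, 10436 genes were called, 10022 of them shared with the contrast over 10 mutants and in the same direction. With libraries scaled to their totals, 8363 genes were higher and 3435 lower.

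Genes that set swp73b apart from the other mutants included several of the leading rises. Among called genes in which all 3 swp73b libraries were above the highest of the other mutants' means, the largest differences were in GRP19 (4.35 ± 0.42), MPL1 (3.58 ± 0.34), AP3 (3.27 ± 0.44), DELTA-VPE (2.92 ± 0.47), PAP1 (2.71 ± 0.47), PXMT1 (2.64 ± 0.34), PRXCA (2.61 ± 0.21) and LBD1 (2.603 ± 0.396). AP3 means in the other mutants ran from 0.206 to 1.42 CPM. PRXCA (AT3G49110), a secreted peroxidase, had 125, 147 and 118 CPM in swp73b libraries, against 13.4, 13.96 and 15.8 CPM in wild-type libraries (log2 change 3.17 ± 0.28, limma adjusted p = 6.91e-10), beside 7.87 to 42.4 CPM in the other mutants. LBD1 had 3.03, 2.86 and 2.502 CPM in swp73b and 1.49, 3.05 and 1.71 CPM in wild type, so it passed the test against the other mutants and did not pass it against wild type (limma adjusted p = 0.475). SEP3 was not particular to swp73b in this sense, as means of the other mutants reached 77.5 CPM. Its difference from their mean was 1.83 ± 0.19.

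At the lower end the largest differences from the other mutants were in PKS4 (-2.83 ± 0.13), HSPRO2 (-2.43 ± 0.19), DYL1 (-2.38 ± 0.15), XTH6 (-2.17 ± 0.20), BXL1 (-2.15 ± 0.18), EXLB1 (-2.098 ± 0.18), TCH4 (-2.01 ± 0.28) and IAA29 (-2.005 ± 0.16). DYL1 (AT1G28330), a gene of dormant and dark-kept tissue, had 33.2, 34.9 and 30.7 CPM in swp73b libraries, against 210.4, 202 and 165 CPM in wild-type libraries (log2 change -2.54 ± 0.199, limma adjusted p = 6.18e-11), beside 67.7 to 445 CPM in the other mutants. BXL1 (AT5G49360), a beta-xylosidase of the cell wall, had 70.1, 62.8 and 47.9 CPM in swp73b libraries, against 353, 399 and 246 CPM in wild-type libraries (log2 change -2.45 ± 0.24, limma adjusted p = 2.92e-09), beside 94.02 to 631 CPM. TCH4 (AT5G57560), a xyloglucan enzyme induced by touch, had 33.5, 38.01 and 67.5 CPM in swp73b and 82.7, 50.6 and 46.4 CPM in wild type and did not pass the test against wild type, while its means in the other mutants were 75.4 to 666 CPM. The TCH4 levels in swp73b thus overlapped those in wild type and lay below the mean of every other mutant.

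The gene lists were also counted against the other mutants, where 23.3% of all tested genes were higher and 24.9% lower. These counts are against the mean of the 10 and do not place swp73b beyond each of them. Auxin genes were lower in 14 of 22 and higher in 4, PIF genes lower in 12 of 21 and higher in 3, and photosynthesis genes lower in 19 of 27 and higher in 2. Summed photosynthesis levels were 57250 to 76910 CPM in swp73b libraries, within the other mutants' means of 55510 to 129600 CPM. LHCA1, for example, was at 3694 CPM in swp73b, 3765 CPM in brm, 4389 CPM in minu12 and 2612 CPM in pms2ab. Its means in the rest were 5656 to 8356 CPM. Anthocyanin genes were higher in 16 of 22 and lower in 1, glucosinolate genes higher in 13 of 21 and lower in 4, and root hair genes higher in 8 of 11 and lower in 1. Abscisic acid genes had 7 members higher and 4 lower than in the other mutants, beside 3 that rose and 9 that fell against wild type. Cold genes had 5 higher and 2 lower, beside 1 that rose and 5 that fell. HAI1 (AT5G59220), a phosphatase induced by abscisic acid, had 23.2, 49.3 and 16.2 CPM in swp73b libraries, against 78.9, 73.7 and 62.99 CPM in wild-type libraries (log2 change -1.43 ± 0.398, limma adjusted p = 0.00363), and a difference from the mean of the other mutants of 2.18 ± 0.29 (limma adjusted p = 6.51e-07). Those mutants were unlike, with HAI1 means of 20.9 CPM in swi3d, 66.3 CPM in sys123 and 70.2 CPM in syd. The rest had 1.32 to 4.73 CPM, so the swp73b mean of 29.6 CPM lay within their whole range. Heat-shock genes had 2 members higher and 3 lower. HSP70 differed from the other mutants by -0.03 ± 0.17 and did not pass that test.

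**Figure D5:**
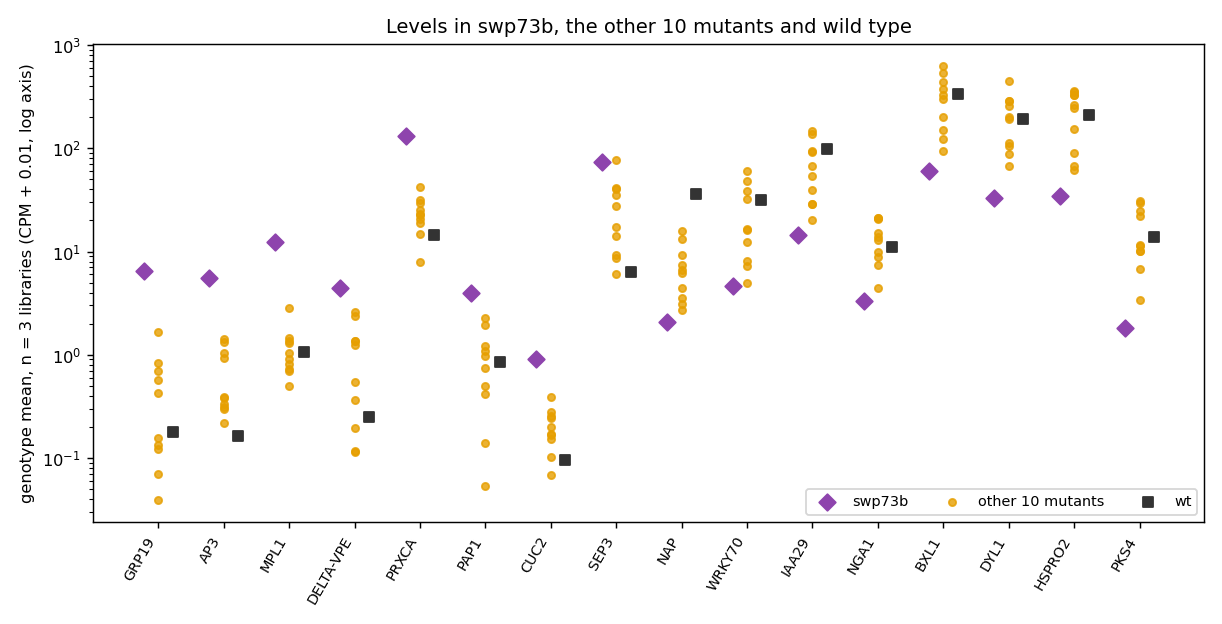
Mean levels (CPM, log axis) of named genes in swp73b, in each of the other 10 mutants and in wild type. MPL1 and PRXCA are above and PKS4 and DYL1 below the whole range of the other mutants in swp73b, whereas for SEP3 the swp73b mean of 73.0 CPM lies within a range that reaches 77.5 CPM.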

How the data were processed

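Libraries from total RNA of 12-day-old seedlings gave 50-bp reads from one end (BGISEQ500), per the labels' protocols. HISAT2, edgeR and TAIR10 are named in the submitters' processing notes without versions. The sources used here do not give the counting step or its use of strand. What the authors deposited is a normalized signal (not whole counts and not CPM) in the form of edgeR's pseudo-counts at a common library size. Inverting that form at a fitted common dispersion of 0.01268 gave whole reads for 99.9997% of 1171728 values (tolerance 1e-04), and for every value of the 6 libraries. The 11 tables hold 32548 genes each and 66 value columns in all, which are 36 distinct libraries of 21070583 to 23761910 reads, because every table repeats wild type. At these depths 3 reads are 0.13 CPM.

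Counts had been planned for edgeR's quasi-likelihood test. Since the deposited signal is normalized, limma 3.58.1 in R 4.3.3 was used in its place, with a trend, on log2(value + 1), in 1 fit of 12 genotype means over 36 libraries. It covered the 23297 genes whose mean value reached 1. P-values were adjusted over all of them by the Benjamini-Hochberg method and called under 0.05. Comparisons were swp73b against wt and swp73b against the mean of the other 10 mutants. Alternatives were edgeR 4.0.16 and DESeq2 1.42.0 on the recovered reads, a fit of the 6 libraries alone, pseudocounts of 0.1 and 5, no filter, a filter of 1 CPM in 3 libraries, median-ratio scaling, scaling by library totals, a replicate block, leaving out each library, and leaving out the syd and an3 libraries. The scripts were tested on simulated data. The members, the gene lists and the tests were chosen with earlier results of these data known.

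Genes named are, among called genes with separated groups, a mean deposited value of at least 50 and a symbol, the 15 largest rises and falls in log2 change and the 5 largest in level. From the contrast with the other mutants they are the 8 highest and 8 lowest called genes with all 3 swp73b libraries beyond every other mutant's mean. Subunits and list members may be named, and other genes are marked as picked after their values were seen. Symbols and gene order come from the TAIR10.1 gene table, and no coordinates or sequences are given because the builds differ. Some subunit names (BRD, BRIP, SYS and BCL7) were given to loci from knowledge of the study. Deviations of same-numbered libraries correlated at r = -0.013, 0.037 and 0.142 over genes for numbers 1, 2 and 3, and only the last was above 0.1, so the numbers were not used as pairs. The exact 95% intervals and floors cover counting error only. A few list members count in the totals but are not reported here by name.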

Additional observations from a re-analysis of the deposited data

How the results depend on the processing

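Calls against wild type kept their direction in every alternative: of the 11510 genes called, 9975 to 11463 were called again the same way by other tools, filters, pseudocounts or scalings, 8765 in the fit of the 6 libraries alone, and 0 turned. With libraries scaled to their totals the contrast with the other mutants gave 8363 genes higher and 3435 lower, in place of 5423 and 5801. The replicate block, on numbers that the main fit did not use as pairs, gave 11584 calls against wild type. Leaving out 1 library gave 9686 to 11423 calls. Of 352 called genes followed by name, 90 lost their call in at least 1 alternative and 0 reversed, and 48 of 928 list counts moved by more than 1.5 times, mostly small counts. Levels under about 0.13 CPM in a library are at the limit of this depth.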

Other observations

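Loci that make no protein were examined by the type given in the gene table. Of 121 small nucleolar RNA loci tested 14 rose and 3 fell, with a median log2 change of 0.31. Of 65 miRNA loci 2 rose and 13 fell, with a median of -0.44, and of 659 long non-coding loci 36 rose and 82 fell, with a median of -0.20. For the 22265 protein-coding genes, 24.7% rose and 26.1% fell. The sources used here do not give a size selection or strand, and a precursor read by such libraries is not a mature small RNA. AT1G66100, picked after its values were seen, had 4.73, 3.54 and 0.534 CPM in swp73b libraries, against 53.1, 71.4 and 54.7 CPM in wild-type libraries (log2 change -4.79 ± 0.59, limma adjusted p = 1.73e-07), and swp73b replicate 3 was the lowest. No tested gene had a lower log2 change, NAP included.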
